A study of Mus musculus with 16 samples.

Results

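The genes described here are 7 interferon-induced genes of the mouse kidney, namely Ifit1, Ifit2, Ifit3, Ifit3b, Ifi44, Ifi44l and Rsad2. They were taken by name, as every array probe whose listed transcript belongs to 1 of these genes, and they are 7 of the 22911 named genes on the array and 8 of its 56605 probes, Rsad2 having 2 probes. Of the 7, 6 passed the filter on dim probes, which asked that 4 or more of the 16 arrays show a signal well above background. Ifi44l did not pass, with a signal well above background on 2 arrays. For a gene with more than 1 probe, the brightest probe was used.

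Kidney RNA of 16 mice at 6 months of age was hybridised to single-colour Agilent arrays, 1 mouse per array, to ask how loss of the adaptor Sting changes gene expression in lupus-prone mice that lack the receptor Fcgr2b. There were 4 mice in each of 4 genotypes. The wild-type (WT) mice were C57BL/6 and were bought from an animal centre. The Fcgr2b-/- mice, labelled lupus mouse or Fcgr2b-ko, were on a mixed 129/C57BL/6 background. The double-deficient mice, labelled Fcgr2b-ko, Sting-ko, carried the Fcgr2b deletion together with the Goldenticket allele of Sting (Sting gt/gt) on the same mixed background. The Sting gt/gt mice, labelled Sting-ko, were C57BL/6. The study's heatmaps head the lupus group as Fcgr2b-/-.Sting wt/gt, whereas the sample labels name only the Fcgr2b deletion. Strain and Fcgr2b genotype therefore cannot be told apart in a comparison of Fcgr2b-deficient with WT mice. The kidneys were taken without perfusion, so RNA of blood cells was part of each sample. All values are whole-organ RNA, in which fewer cells of a type and less RNA per cell cannot be told apart.

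Type I interferon binds the receptor pair Ifnar1 and Ifnar2 and, through the kinases Jak1 and Tyk2, switches on target genes that carry interferon-stimulated response elements upstream. Ifit proteins bind foreign RNA and block its translation, and Rsad2, or viperin, makes a nucleotide that stops viral RNA synthesis. These genes are part of the interferon signature of lupus, in the kidney as in blood. Cgas, a sensor of cytosolic DNA, makes a cyclic dinucleotide once DNA has activated it. Sting, which this dinucleotide activates, is an adaptor upstream of interferon production.

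The promoters of these genes were examined because the genes moved together across the mice. Promoters of all 7 genes, with 2 for Ifit2, were found in the RefSeq table (build GRCm38.p6), each running from 250 bases before to 50 bases after the transcription start. The core of the interferon-stimulated response element was searched on both strands as GAAA, any 2 bases and GAAA again, which reads TTTC, any 2 bases and TTTC on the opposite strand. It was present in 1131 of 32851 promoters of the same length, or 3.44%, and in the promoters of 4 of the 7 genes. Ifit1, Ifit3 and Ifit3b each held 2 matches, where 0.225% of all promoters held 2 or more, and Rsad2 held 1. The sequences of these 4 genes are shown because they carry the matches, which are in capitals. Ifit1 lies at chr19:34640639-34640938 on the plus strand, Ifit3 at chr19:34583279-34583578 on the plus strand, Ifit3b at chr19:34607707-34608006 on the plus strand and Rsad2 at chr12:26456403-26456702 on the minus strand. Each is written 5′ to 3′ in the direction of its gene.
Ifit1: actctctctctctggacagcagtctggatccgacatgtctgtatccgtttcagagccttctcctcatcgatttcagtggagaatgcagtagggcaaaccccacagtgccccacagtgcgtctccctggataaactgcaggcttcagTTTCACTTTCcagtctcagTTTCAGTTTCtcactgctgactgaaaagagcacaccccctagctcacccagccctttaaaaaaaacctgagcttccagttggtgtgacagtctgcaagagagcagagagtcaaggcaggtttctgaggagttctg
Ifit3: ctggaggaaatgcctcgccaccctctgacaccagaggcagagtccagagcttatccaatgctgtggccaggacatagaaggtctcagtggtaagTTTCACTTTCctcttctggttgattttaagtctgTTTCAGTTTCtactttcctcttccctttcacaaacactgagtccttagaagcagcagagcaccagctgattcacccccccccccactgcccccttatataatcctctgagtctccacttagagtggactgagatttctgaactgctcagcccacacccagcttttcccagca
Ifit3b: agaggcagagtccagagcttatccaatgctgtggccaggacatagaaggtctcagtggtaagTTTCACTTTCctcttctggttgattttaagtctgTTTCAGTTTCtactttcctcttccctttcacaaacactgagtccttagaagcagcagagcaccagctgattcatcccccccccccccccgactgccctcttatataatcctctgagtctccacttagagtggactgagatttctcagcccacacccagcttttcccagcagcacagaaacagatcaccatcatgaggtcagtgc
Rsad2: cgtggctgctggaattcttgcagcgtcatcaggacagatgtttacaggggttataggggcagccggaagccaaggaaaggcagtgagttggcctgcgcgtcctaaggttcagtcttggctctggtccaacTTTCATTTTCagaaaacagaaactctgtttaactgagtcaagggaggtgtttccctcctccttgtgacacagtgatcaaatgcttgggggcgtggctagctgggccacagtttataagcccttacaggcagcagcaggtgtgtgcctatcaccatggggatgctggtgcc

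The same 2 ten-letter strings, TTTCACTTTC and then TTTCAGTTTC, stood in Ifit1, Ifit3 and Ifit3b. Their first bases were 19 bases apart in Ifit1 and 34 bases apart in both Ifit3 and Ifit3b. In Ifit1 the string nearer the gene ended 76 bases before the start, against 113 bases in Ifit3 and 145 bases in Ifit3b. Rsad2 held TTTCATTTTC, ending 111 bases before its start. The promoters of Ifit3 and Ifit3b were nearly copies of each other, with 259 of 274 aligned bases identical (94.5%), whereas the best local match between Ifit1 and Ifit3 covered 40 bases. The Ifit2, Ifi44 and Ifi44l windows did not hold these letters. A second motif, TTC, any 3 bases and GAA on both strands, known as the gamma-activated site, was found in 8.3% of all promoters and, among the 7 genes, only in Ifit2, as TTCCTGGAA. For comparison, the response element core was present in 12 of 20 other interferon-stimulated genes that had a promoter in the table, in 0 of 5 interferon receptors and in 1 of 5 housekeeping genes. It was also present in 2 of the 3 related or neighbouring genes, Ifit1bl1 and Ifit1bl2 but not Cmpk2. An upstream window of Ifit1bl2 overlaps that of Ifit1 on the other strand, and its matches are the same bases as those of Ifit1. A match describes letters only, and binding of a factor was not measured.

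The targeted genes were read first, to check the labels. All signals are given as log2 of the probe's signal over the 75th percentile of its array. Fcgr2b, the inhibitory Fc receptor, had log2 signals of 1.65, 1.37, 1.08 and 0.61 in WT mice 1 to 4. The values were 0.23, -0.51, -0.45 and -0.31 in Fcgr2b-/- mice, -0.58, 0.02, -0.92 and -0.78 in double-deficient mice, and 1.01, 0.54, 0.19 and -0.65 in Sting gt/gt mice. All 8 Fcgr2b-deficient mice lay below all 4 WT mice, while Sting gt/gt mice 3 and 4 lay among the deficient ones, so Fcgr2b did not separate the genotypes fully. The log2 difference from WT was -1.44 (SE 0.35) in Fcgr2b-/- mice and -1.74 (SE 0.35) in double-deficient mice, with limma adjusted p of 0.415 and 0.451. Whether the probe lies in the deleted part of the gene was not tested. Sting1 read 0.55, -1.89, -1.11 and -0.53 in WT mice, 2.21, -0.65, -0.79 and 1.99 in Fcgr2b-/- mice, -0.39, 0.42, -0.60 and -1.1 in double-deficient mice, and 0.48, -0.36, -0.61 and -0.35 in Sting gt/gt mice. The Sting1 ranges overlapped in all 4 groups, and since the Goldenticket allele changes the protein and not the gene's presence, this level checks no label. As a tissue check, the proximal tubule transporter Slc34a1 (4.85 to 7.64) and the thick limb protein Umod (6.42 to 8.28) were well above background on all 16 arrays.

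Ifit1, which binds RNA lacking the methylated cap of host transcripts, had log2 signals of -0.23, -4.45, -2.11 and -1.70 in WT mice 1 to 4 and of 1.21, -2.31, -2.62 and 0.03 in Fcgr2b-/- mice 1 to 4. It read -1.73, -0.89, -1.71 and -2.80 in double-deficient mice and -0.08, -1.94, -1.46 and -1.63 in Sting gt/gt mice. Fcgr2b-/- mice 1 and 4, Sting gt/gt mouse 1 and WT mouse 1 were the 4 highest, WT mouse 2 was far the lowest, and all 4 groups overlapped. The group means were -2.12 ± 1.75, -0.92 ± 1.85, -1.78 ± 0.78 and -1.27 ± 0.82 (SD, n = 4) in WT, Fcgr2b-/-, double-deficient and Sting gt/gt mice. Ranked by size, each of these means was closer to the next than 1 SD of either group.

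Ifit2, an RNA-binding relative of Ifit1 that also promotes cell death, gave -0.23, -3.15, -2.51 and -2.06 in WT mice and 0.34, -2.83, -2.94 and -1.03 in Fcgr2b-/- mice. Its values were -1.97, -1.19, -1.81 and -2.96 in double-deficient mice and -0.60, -1.99, -1.71 and -1.30 in Sting gt/gt mice. The same 4 mice stood at the top, here in the order Fcgr2b-/- 1, WT 1, Sting gt/gt 1 and Fcgr2b-/- 4, and the groups overlapped. Mean Ifit2 was -1.99 ± 1.25, -1.61 ± 1.57, -1.98 ± 0.73 and -1.4 ± 0.60 (SD, n = 4) in the same group order.

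Ifit3, a further gene of the Ifit family, read 2.35, 0.34, 1.04 and 1.44 in WT mice and 3.35, 1.6, 0.11 and 2.31 in Fcgr2b-/- mice. It read 1.23, 1.53, 1.32 and 0.14 in double-deficient mice and 2.39, 1.30, 0.94 and 1.70 in Sting gt/gt mice. Once more the top 4 were mouse 1 of the WT, Fcgr2b-/- and Sting gt/gt groups and Fcgr2b-/- mouse 4, while Fcgr2b-/- mouse 3 was the lowest of all 16. The means were 1.29 ± 0.84, 1.84 ± 1.36, 1.06 ± 0.62 and 1.58 ± 0.62 (SD, n = 4). Ifit3b, the neighbouring close relative of Ifit3, followed it almost exactly, with 0.41, -1.38, -0.73 and -0.28 in WT mice, 1.25, -0.22, -1.46 and 0.48 in Fcgr2b-/- mice, -0.56, -0.32, -0.30 and -1.61 in double-deficient mice, and 0.62, -0.50, -0.95 and -0.06 in Sting gt/gt mice. The same 4 mice were highest in Ifit3b, with double-deficient mouse 4 lowest, and its ranges overlapped in all groups. Whether either probe also binds the transcript of the other gene was not tested.

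Ifi44, an interferon-induced protein of the cytoplasm, gave 1.91, -0.98, -1.12 and -0.20 in WT mice and 2.19, -0.86, -0.95 and 0.59 in Fcgr2b-/- mice. The double-deficient mice gave -0.36, 1.05, -0.11 and -0.76 and the Sting gt/gt mice 2.07, -0.03, 0.67 and 0.16. Mouse 1 of the WT, Fcgr2b-/- and Sting gt/gt groups stood above every other mouse, and double-deficient mouse 2 came next. Group means of Ifi44 were -0.10 ± 1.4, 0.24 ± 1.48, -0.04 ± 0.78 and 0.72 ± 0.95 (SD, n = 4).

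Rsad2 gave 2.80, -0.32, -0.21 and 0.23 in WT mice and 1.98, -0.35, 0.42 and 0.84 in Fcgr2b-/- mice. It gave 0.39, 1.29, 0.82 and 0.37 in double-deficient mice and 2.55, 0.74, 1.66 and 0.39 in Sting gt/gt mice. Here WT mouse 1 was the highest of all, above Sting gt/gt mouse 1 and Fcgr2b-/- mouse 1, and Fcgr2b-/- mouse 4 was no longer among the top 4. The means were 0.62 ± 1.47, 0.72 ± 0.97, 0.72 ± 0.44 and 1.34 ± 0.97 (SD, n = 4). The second Rsad2 probe was dimmer by a mean log2 difference of 2.37 and followed the first over the 16 mice (r = 0.907). Ifi44l, a relative of Ifi44, lay between -7.72 and -3.29. It was well above background only in double-deficient mouse 3 and Sting gt/gt mouse 2, the latter being its highest value, so in the other 14 mice its signal is only a bound.

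**Figure D1:**
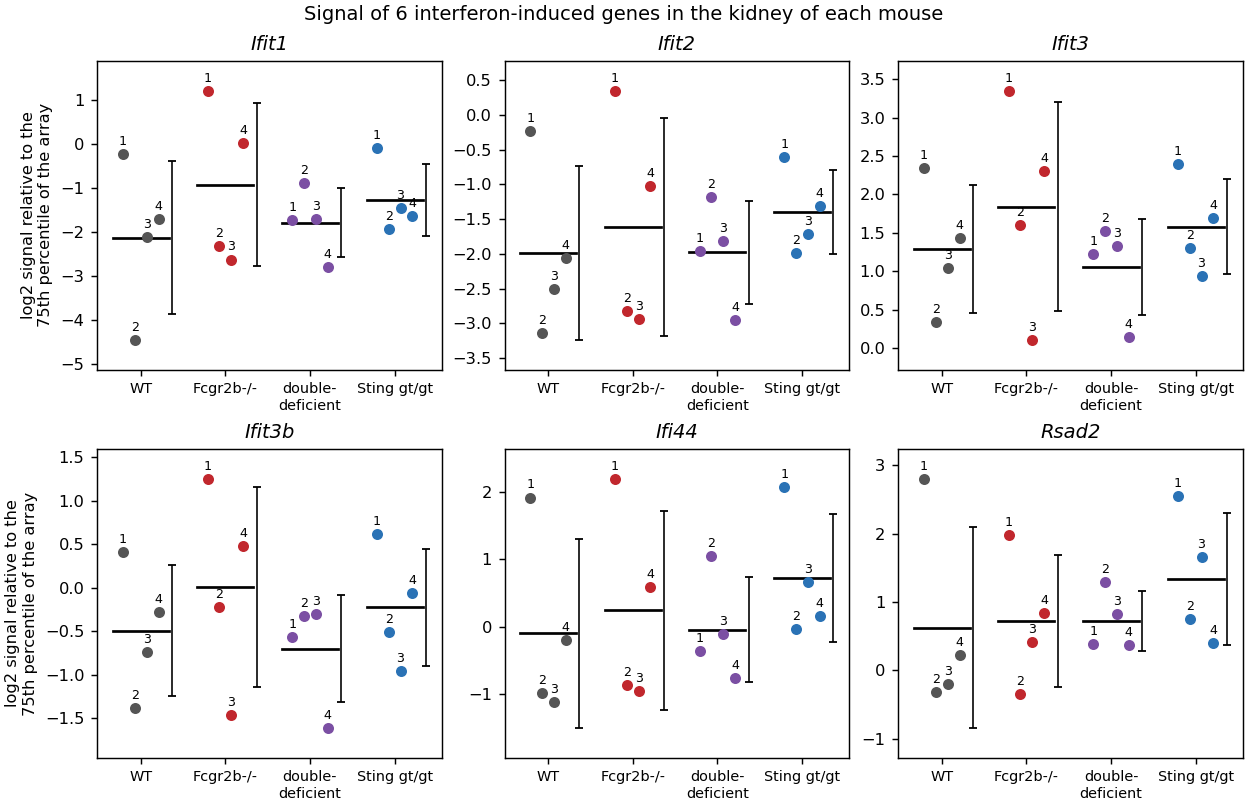
Log2 signal over the array's 75th percentile (y axis) of Ifit1, Ifit2, Ifit3, Ifit3b, Ifi44 and Rsad2 in each mouse, by genotype (x axis), with points numbered by mouse, a line at the group mean and a bar of 1 SD (n = 4 per group). The 4 genotypes overlap in every gene, and mouse 1 of the WT, Fcgr2b-/- and Sting gt/gt groups is the highest of its group in all 6 genes.

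Averaged over the 6 measured genes and set against the WT mean, the log2 values were 1.63, -1.19, -0.48 and 0.03 in WT mice and 2.18, -0.36, -0.78 and 1.0 in Fcgr2b-/- mice. The averages were -0.04, 0.71, 0.17 and -0.81 in double-deficient mice and 1.62, 0.06, 0.32 and 0.34 in Sting gt/gt mice. No double-deficient mouse reached the 1.0 of Fcgr2b-/- mouse 4, while WT mouse 1 and Sting gt/gt mouse 1 passed it. All 6 genes were at least 2-fold above the WT mean in Fcgr2b-/- mouse 1 and in Sting gt/gt mouse 1, and 5 were in WT mouse 1. In Fcgr2b-/- mouse 4 and double-deficient mouse 2, 2 genes passed that mark, in Sting gt/gt mouse 3 a single gene did, and in the other 10 mice 0 did. The spread was wide in WT (SD 1.20) and Fcgr2b-/- mice (SD 1.35) and narrower in double-deficient (SD 0.63) and Sting gt/gt mice (SD 0.70). This difference in spread was not tested.

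**Figure D2:**
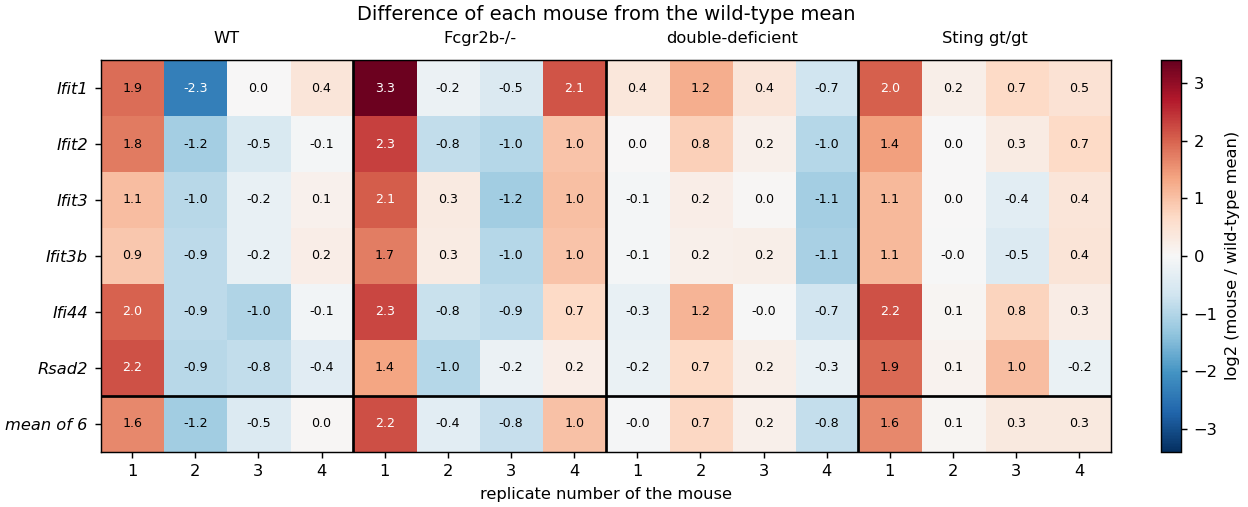
Log2 signal of each gene in each mouse minus the mean of the WT mice, with mice in columns by genotype and number, genes in rows and the mean over the 6 genes in the last row, and with red above and blue below the WT mean. The columns of WT mouse 1, Fcgr2b-/- mouse 1 and Sting gt/gt mouse 1 are red throughout (mean 1.63, 2.18 and 1.62), and WT mouse 2 is the bluest (mean -1.19).

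The genes varied within genotypes more than most of the array did. The within-group SD was 1.39 for Ifit1, 1.11 for Ifit2, 0.91 for Ifit3, 0.82 for Ifit3b, 1.19 for Ifi44 and 1.03 for Rsad2, while the median tested probe had 0.554. Ifit1 stood at the 96.8th percentile of the tested probes in this respect and Ifit3b, the steadiest of the 6, at the 75.8th. Over the 16 mice, the closest pair was Ifit3 with Ifit3b (r = 0.994, rho = 0.985, and r = 0.993 without the 2 most extreme arrays). Ifit2 with Ifi44 (r = 0.951) and Ifi44 with Rsad2 (r = 0.935) came next among genes of different families. Ifit3b with Rsad2 was the loosest pair (r = 0.607, rho = 0.497, and r = 0.452 without the 2 extreme arrays). These 15 pairs are descriptions over the same 16 arrays. Ifit2 had r of 0.840 or more with each of the others, whereas Ifit1 with Rsad2 had 0.765. Thus Ifit3 and Ifit3b formed a tight pair, and Rsad2 was closest to Ifi44.

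To ask whether these genes were higher in the lupus-prone mice, Fcgr2b-/- and WT mice were compared first. The mean of the brightest probe was higher in Fcgr2b-/- mice for all 6 genes, by a log2 difference of 1.20 for Ifit1 (SE 0.89), 0.55 for Ifit3 (SE 0.59), 0.51 for Ifit3b (SE 0.54), 0.37 for Ifit2 (SE 0.72), 0.34 for Ifi44 (SE 0.76) and 0.10 for Rsad2 (SE 0.67). The second, dimmer Rsad2 probe went the other way, by -0.10 (SE 0.60). Of all 35629 tested probes 44.7% were higher, and the median was 0.44 for the 6 genes against -0.04 for all probes. Only Ifit1 was higher by at least 2-fold (2.29-fold), as were 4.43% of all probes. With each mouse left out in turn, the log2 difference of Ifit1 ran from 0.42 to 1.83, so passing 2-fold depended on single mice. Fcgr2b-/- mouse 3 lay below the WT mean in all 6 genes and mouse 2 in 4 of them, all but Ifit3 and Ifit3b. With limma, 0 of the 6 genes passed an adjusted p of 0.05 with at least 2-fold, which 0.0449% of all probes (16) did, and the smallest adjusted p among the 6 was 1.0. None of the 6 had an unadjusted p under 0.05, as 3.3% of all probes had, and none had groups that did not overlap, as 1.2% of all probes had. The exact Mann-Whitney test gave 0 of 6 as well, with a smallest p of 0.486.

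The difference depended on single mice: without Fcgr2b-/- mouse 1 the median over the 6 genes was -0.12, whereas it was 0.91 without Fcgr2b-/- mouse 3, 0.93 without WT mouse 1 and 0.13 without WT mouse 2. With number 1 of every group left out, a choice made after seeing the data, it was 0.40. A single gene reached an unadjusted p under 0.05 without Fcgr2b-/- mouse 3 (0.0497), and none did without any other mouse. The share of all probes at that p is given for the full set of arrays only, so this count is a description. Blocking on slide gave a median of 0.28. Within slide 1 the mean over the genes was higher by 0.72 (3 Fcgr2b-/- against 2 WT mice), and within slide 2 it differed by -0.56 (1 against 2 mice).

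The comparison of double-deficient with Fcgr2b-/- mice asks what loss of Sting does on the lupus-prone background. By their brightest probes all 6 genes had a lower mean in double-deficient mice, with log2 differences of -0.86 for Ifit1 (SE 0.89), -0.79 for Ifit3 (SE 0.59), -0.71 for Ifit3b (SE 0.54), -0.37 for Ifit2 (SE 0.72), -0.28 for Ifi44 (SE 0.76) and -0.01 for Rsad2 (SE 0.67). The second Rsad2 probe was higher, by 0.15 (SE 0.60). Of all probes 43.7% were lower, and the median was -0.54 over the 6 genes against 0.05 over all probes. The 4 double-deficient mice lay inside the range of the Fcgr2b-/- mice in Ifit3, Ifi44 and Rsad2. In Ifit1, Ifit2 and Ifit3b, double-deficient mouse 4 lay just under that range. limma called 0 of 6 genes and 0% of all probes. At an unadjusted p under 0.05 there were 0 of 6 genes and 1.77% of all probes, the exact Mann-Whitney test gave 0 of 6, and 0 of 6 had groups that did not overlap (1.01% of all probes).

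The direction of the median over the genes turned on mouse 1, and its size on others. With each mouse left out in turn, Ifit1 (-1.42 to -0.15), Ifit3 (-1.36 to -0.28) and Ifit3b (-1.20 to -0.30) stayed lower. The ranges of Ifit2, Ifi44 and Rsad2 held both signs. Without Fcgr2b-/- mouse 1 the median was 0.07, and with number 1 of every group left out it was 0.06. Without Fcgr2b-/- mouse 3 it was -1.01, with 2 of 6 genes at an unadjusted p under 0.05 (smallest 0.0210) and 0 called. The share of all probes at that p is not given for this fit, so the count is a description only. Blocking on slide gave -0.23. Within slide 1 the mean over the genes differed by -0.98 (1 double-deficient against 3 Fcgr2b-/- mice), and within slide 2 it was higher by 0.80 (3 against 1).

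**Figure D3:**
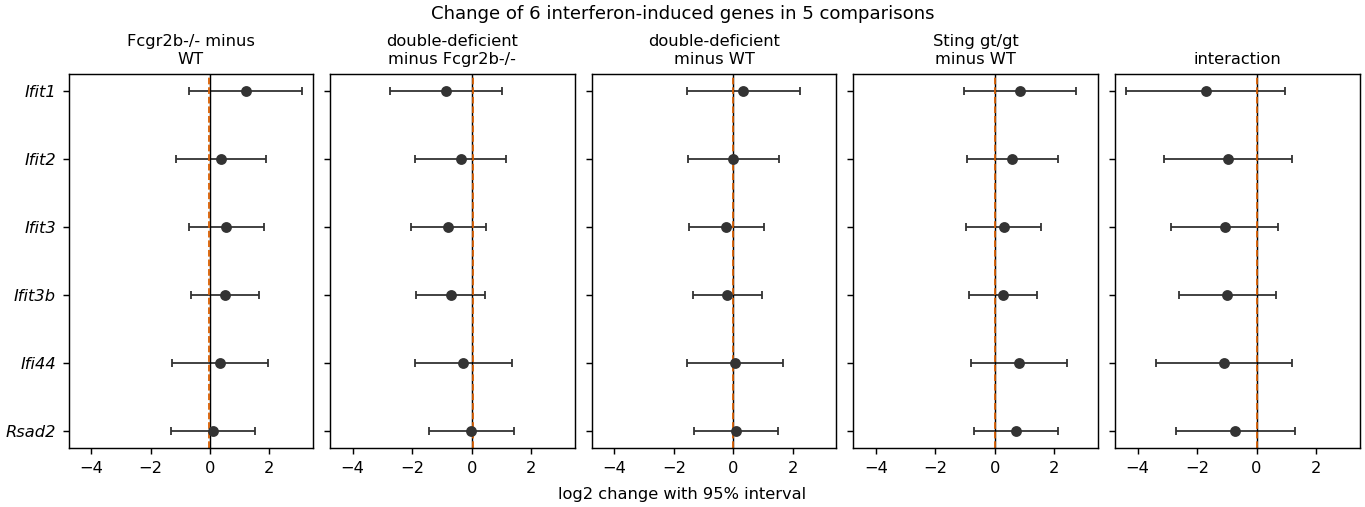
Log2 difference in group means (x axis) of each gene (y axis) in the 5 comparisons, with bars of the 95% confidence interval from the limma fit (16 arrays) and a dashed line at the median of all 35629 tested probes. Every interval includes 0, and the largest difference between 2 groups is 1.20, for Ifit1 in Fcgr2b-/- against WT mice.

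Double-deficient mice and WT mice had nearly the same means. Ifit1 (0.34, SE 0.89), Rsad2 (0.09), Ifi44 (0.05) and Ifit2 (0.01) were higher by these log2 differences, and Ifit3 (-0.24) and Ifit3b (-0.20) were lower. In the main scaling 4 of 6 genes were higher, against 51.2% of all probes, and the median was 0.03 for the genes and 0.01 for all probes. The median of the genes was -0.03 with normexp background correction and -0.02 with quantile normalization, with -0.02 and 0.00 for all probes. limma called 0 of 6 genes and 0% of all probes, with 0 of 6 against 0.418% at an unadjusted p under 0.05, 0 of 6 against 0.547% with groups that did not overlap, and 0 of 6 by the exact Mann-Whitney test. Single mice set this value: without WT mouse 1 the median was 0.66, whereas it was -0.41, -0.24 and -0.03 without WT mouse 2, 3 or 4. It was -0.29 without double-deficient mouse 2. The mean over the genes differed by -0.26 within slide 1 and by 0.24 within slide 2, and the median with the slide as a block was 0.19.

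Loss of Sting function on the C57BL/6 background did not go with lower values of these genes. The mean was higher in Sting gt/gt than in WT mice for 6 of 6 genes, as for 51.4% of all probes, by 0.85 for Ifit1 (SE 0.89), 0.82 for Ifi44 (SE 0.76), 0.71 for Rsad2 (SE 0.67), 0.59 for Ifit2 (SE 0.72), 0.29 for Ifit3 (SE 0.59) and 0.27 for Ifit3b (SE 0.54). The median was 0.65 against 0.02 for all probes (0.41 against 0.03 with normexp background correction), and it was 1.30 without WT mouse 1 and 0.14 without WT mouse 2. Without WT mouse 1 a single gene reached an unadjusted p under 0.05 (0.0183), and 0 were called. For that fit the share of all probes at that p is not given. Each Sting gt/gt mouse lay inside the WT range in all 6 genes except mouse 1 in Ifit1, Ifit3, Ifit3b and Ifi44, where it was just above WT mouse 1. limma called 0 of 6 genes (smallest adjusted p 0.750) and 0% of all probes. The counts were 0 of 6 against 3.71% at an unadjusted p under 0.05, 0 of 6 against 1.92% with groups that did not overlap, and 0 of 6 by the exact Mann-Whitney test (smallest p 0.2). The mean over the genes was higher by 0.62 within slide 1 and by 0.55 within slide 2, and the median with the slide as a block was 0.65. The comparisons of Fcgr2b-/-, double-deficient and Sting gt/gt mice with WT mice share the 4 WT mice, so their values are not independent. Fcgr2b-/- against WT and double-deficient against Fcgr2b-/- share the 4 Fcgr2b-/- mice, so their opposite signs are not independent either.

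Whether loss of Sting acted differently with and without Fcgr2b was tested as an interaction, the difference of double-deficient from Fcgr2b-/- mice minus that of Sting gt/gt from WT mice. It was negative for 6 of 6 genes, as for 49.4% of all probes, at -1.71 for Ifit1 (SE 1.26), -1.1 for Ifi44 (SE 1.08), -1.08 for Ifit3 (SE 0.84), -0.98 for Ifit3b (SE 0.77), -0.95 for Ifit2 (SE 1.01) and -0.72 for Rsad2 (SE 0.94). The median was -1.03 against 0.01 for all probes, and 3 of 6 genes passed 2-fold downward, as 13.1% of all probes did. limma called 0 of 6 genes (smallest adjusted p 0.685) and 0% of all probes, and at an unadjusted p under 0.05 there were 0 of 6 genes and 6.2% of all probes. The interval for Ifit1 ran from -4.39 to 0.97. Leaving out 1 mouse moved the median to between -1.49 (WT mouse 1) and -0.51 (Fcgr2b-/- mouse 1). Without Fcgr2b-/- mouse 3 it was -1.48, with 2 of 6 genes at an unadjusted p under 0.05 (smallest 0.0365) and 0 called. The 6.2% of all probes belongs to the fit of all arrays, and no share is given for this fit. Blocking on slide gave a median of -0.69. Fcgr2b-deficient mice were on the mixed background and the others were C57BL/6, so this interaction cannot separate strain from Fcgr2b genotype.

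Further along the pathway, the ligands gave little signal. Of 11 interferon genes 10 had a probe and 5 passed the filter on dim probes. Ifnb1, the first type I interferon made after Sting activation, was well above background on 0 of 16 arrays, and Ifng on 7. In Fcgr2b-/- against WT mice 3 of the 5 were higher and 2 lower, and 0 were called. All 6 interferon receptor genes were measured, and in Fcgr2b-/- against WT mice 6 were higher with a median of 0.26. Of all probes 44.7% were higher in this comparison.

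Of 4 inhibitors of interferon signalling, Socs3, a feedback inhibitor of Jak kinases, had values of -0.97, -2.89, -2.06 and -1.39 in WT mice and 2.73, -1.0, -0.83 and 1.84 in Fcgr2b-/- mice. Fcgr2b-/- mice 1 and 4 stood far above all WT mice, and mice 2 and 3 lay level with the highest WT mouse. The log2 difference was 2.51 (SE 0.71, adjusted p 0.724), and 3 of the 4 inhibitors were higher in Fcgr2b-/- than in WT mice. Of 9 measured genes of interferon induction, 6 were higher in Fcgr2b-/- than in WT mice (median 0.64). In double-deficient against Fcgr2b-/- mice 6 were lower (median -0.56). The shares of all probes were 44.7% higher and 43.7% lower. Irf7, the factor that amplifies interferon production, read 2.99, 1.75, 2.19 and 2.84 in WT mice, 4.81, 2.97, 2.35 and 4.54 in Fcgr2b-/- mice, 2.24, 1.98, 2.93 and 1.78 in double-deficient mice, and 3.58, 2.20, 2.72 and 2.59 in Sting gt/gt mice. Here Fcgr2b-/- mice 1 and 4 were the highest of all 16, while mice 2 and 3 lay within the WT range.

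A list of 30 other interferon-stimulated genes, of which 27 were measured, was described in the same way. In Fcgr2b-/- against WT mice 26 of 27 were higher (44.7% of all probes), with a median of 0.96. Of these, 6 had an unadjusted p under 0.05 (3.3% of all probes). In double-deficient against Fcgr2b-/- mice 27 of 27 were lower (43.7% of all probes), with a median of -0.88. Of these, 7 had an unadjusted p under 0.05 (1.77% of all probes). These 2 comparisons share the 4 Fcgr2b-/- mice, so their opposite signs are not independent. Against WT mice, 11 of 27 were higher in double-deficient mice (median -0.10) and 19 of 27 in Sting gt/gt mice (median 0.32). Of all probes 51.2% and 51.4% were higher in these comparisons. The interaction was negative for 26 of 27 (median -1.28), 7 of them with an unadjusted p under 0.05, against 49.4% and 6.2% of all probes. limma called 0 of 27 in all 5 comparisons.

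Oas1a, which makes the second messenger that activates an RNA-degrading enzyme, gave 0.92, -0.39, 0.10 and 0.88 in WT mice and 3.77, 1.1, 0.72 and 3.42 in Fcgr2b-/- mice. It gave 0.57, 0.37, 1.01 and 0.05 in double-deficient mice and 1.87, 0.48, 1.45 and 0.62 in Sting gt/gt mice. Fcgr2b-/- mice 1 and 4 were far above every other mouse in Oas1a, and WT mouse 1 was not set apart from WT mouse 4, unlike in Ifit1 or Rsad2. The difference between Fcgr2b-/- and WT mice was 1.87 (SE 0.61, adjusted p 0.992). Isg15, the ubiquitin-like modifier, read 1.58, 0.46, 1.03 and 1.51 in WT mice, 3.49, 1.49, 0.92 and 3.09 in Fcgr2b-/- mice, 1.05, 1.03, 1.52 and 0.44 in double-deficient mice, and 2.45, 0.87, 1.74 and 1.38 in Sting gt/gt mice. Fcgr2b-/- mice 1 and 4 were again the highest, and WT mice 1 and 4 were alike. The difference in Isg15 was 1.11 (SE 0.52) between Fcgr2b-/- and WT mice and -1.24 (SE 0.52) between double-deficient and Fcgr2b-/- mice, with an adjusted p of 1.0 for each. Averaged over the 27 genes, the log2 values relative to the WT mean were 2.31 and 1.72 in Fcgr2b-/- mice 1 and 4, 1.16 in Sting gt/gt mouse 1 and 0.95 in WT mouse 1, with no other mouse above 0.37.

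Genes that neighbour the 7 genes on the chromosome were examined as well. Cmpk2, a nucleotide kinase next to Rsad2, gave 1.56, 0.01, 0.15 and 0.25 in WT mice, 1.41, 0.31, -0.15 and 0.67 in Fcgr2b-/- mice, 0.49, 0.70, 0.25 and -0.10 in double-deficient mice, and 1.43, 0.45, 0.57 and 0.53 in Sting gt/gt mice. Mouse 1 of the WT, Fcgr2b-/- and Sting gt/gt groups again held the top values. Over the 16 mice Cmpk2 followed the mean of the 6 genes (r = 0.95), Ifit1bl1 less so (r = 0.73) and Ifit1bl2 the least of these 3 (r = 0.60). The mean of all 9 flanking genes followed it loosely (r = 0.54, rho = 0.49), the 8 measured besides Cmpk2 lying between -0.45 for Lipa and 0.91 for Adgrl4.

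Many genes followed the mean of the 6 genes across the 16 mice. Of 16387 named genes, 508 (3.1%) had r over 0.9 and 307 (1.87%) had r under -0.9. The closest were Trim12a (r = 0.979), Fmnl2 (0.978), Grap (0.977), Apol10b (0.976), Sema3d (0.976), Dsel (0.975), Cavin3 (0.974), Gbp5 (0.974), Rbms3 (0.974) and Armcx2 (0.973). The most opposed were Tbc1d7 (-0.963), Notum (-0.962), Agbl5 (-0.962) and Ube2n (-0.961). After the group means were removed, the closest 10 were Akap12, Dsel, Ifi204, Grap, Ap1s2, Ahnak, Gbp5, Trim12a, Rbms3 and Sema3d, of which 6 were also among the first 10. All these values share the same arrays and are descriptions. The first principal component of the other 35609 tested probes held 40.3% of their variance, and the mean of the 6 genes followed it (r = 0.91, rho = 0.92, r = 0.85 without the 2 most extreme arrays, and 0.98 and 0.80 within slides 1 and 2). The genes thus moved along the main axis on which the 16 arrays differed, and what sets this axis was not tested. The 75th percentile signal of the array was less closely related (r = 0.28, rho = 0.17), with 0.57 and -0.45 within the slides. How many probes of an array stood well above background was closer (r = 0.62, rho = 0.71, r = 0.46 without the 2 most extreme arrays), with 0.81 and 0.15 within the slides.

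Some lists of kidney and immune cell markers moved with or against these genes, and others did not. The mean of 6 proximal tubule markers, relative to the WT mean, was -0.48, 0.37, 0.20 and -0.09 in WT mice, -1.72, 0.28, 0.27 and -0.50 in Fcgr2b-/- mice, 0.06, -0.37, -0.02 and 0.31 in double-deficient mice, and -0.76, 0.06, -0.22 and -0.54 in Sting gt/gt mice. Low tubule values were found in the mice with high interferon-induced genes (r = -0.92, rho = -0.95, r = -0.94 without the 2 most extreme arrays, and -0.91 within each slide). All 6 markers were measured, 5 of them with a negative r, and Slc34a1 had the brightest probe. Their summed signal, in percent of the 75th percentile signal, was 39354, 65900, 57289 and 47897 in WT mice, 19277, 60775, 61316 and 34773 in Fcgr2b-/- mice, 52233, 40201, 49004 and 65549 in double-deficient mice, and 36021, 52678, 45915 and 37457 in Sting gt/gt mice. The sum in Fcgr2b-/- mouse 1 was the lowest of the 16.

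The mean of 5 endothelial markers, all measured and with Emcn the brightest, was 1.77, -1.08, -0.60 and -0.09 in WT mice, 1.15, -0.84, -0.07 and 0.57 in Fcgr2b-/- mice, 0.09, 0.84, 0.34 and -0.10 in double-deficient mice, and 1.6, 0.33, 0.86 and 0.08 in Sting gt/gt mice. It was highest in mouse 1 of the WT, Sting gt/gt and Fcgr2b-/- groups, as Rsad2 was (r = 0.88 and rho = 0.90 with the mean of the 6 genes, r = 0.87 without the 2 most extreme arrays, and 0.93 and 0.74 within the slides). Their summed signal was 7938, 766, 1073 and 1484 in WT mice, 3679, 1076, 1415 and 2264 in Fcgr2b-/- mice, 1768, 4517, 1756 and 1400 in double-deficient mice, and 5526, 2019, 2987 and 2031 in Sting gt/gt mice.

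Of 11 markers of dendritic and other myeloid cells 10 were measured, and Xcr1 was well above background on 2 arrays only. Their mean was 1.21, -0.41, -0.62 and -0.18 in WT mice, 2.58, 0.17, 0.48 and 2.03 in Fcgr2b-/- mice, 0.03, 1.39, 0.21 and -0.11 in double-deficient mice, and 1.15, 0.08, 0.12 and 0.20 in Sting gt/gt mice. Fcgr2b-/- mice 1 and 4 were highest, followed by double-deficient mouse 2 and by mouse 1 of the WT and Sting gt/gt groups (r = 0.84 and rho = 0.80 with the mean of the 6 genes, r = 0.74 without the 2 most extreme arrays, and 0.89 and 0.53 within the slides). In Fcgr2b-/- against WT mice 8 of the 10 were higher, 5 with an unadjusted p under 0.05 and 0 called by limma. Of all probes 44.7% were higher and 3.3% had an unadjusted p under 0.05. The macrophage marker Cd68 was higher by 2.32 (SE 0.49, adjusted p 0.228). The summed signal of the 10 was 29467, 21685, 13598 and 12611 in WT mice, 23654, 15648, 16493 and 18681 in Fcgr2b-/- mice, 13846, 31694, 11691 and 16184 in double-deficient mice, and 18724, 12775, 18349 and 25643 in Sting gt/gt mice. The brightest probe was that of Ly6c2, which followed the mean of the 6 genes weakly (r = 0.32).

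The mean of 8 T cell markers, all measured and with Cd247 the brightest, was 0.49, -0.47, 0.25 and -0.27 in WT mice, 1.71, -0.06, -0.55 and 1.01 in Fcgr2b-/- mice, -0.32, 0.61, -0.09 and -0.69 in double-deficient mice, and 0.80, 0.14, 0.00 and -0.09 in Sting gt/gt mice. Fcgr2b-/- mice 1 and 4 had the highest T cell marker means (r = 0.88 and rho = 0.82 with the mean of the 6 genes, r = 0.84 without the 2 most extreme arrays, and 0.90 and 0.73 within the slides). Their summed signal was 884, 1555, 1610 and 955 in WT mice, 1766, 1750, 1186 and 1388 in Fcgr2b-/- mice, 1210, 1353, 1027 and 1207 in double-deficient mice, and 1122, 1003, 1431 and 1489 in Sting gt/gt mice, and it did not follow the same order of mice. The 8 markers did not agree: 5 had r from 0.73 to 0.94 with the mean of the 6 genes, while Cd4 (r = -0.87), Cd247 (-0.57) and Cd3e (-0.14) went the other way.

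The mean of the other interferon-stimulated genes gave r = 0.92 (0.91 within each slide) and that of the inhibitors 0.88 (0.88 and 0.78 within slides 1 and 2). Several other lists agreed less between the slides. Interferon induction gave 0.85 (0.88 and 0.47), with 3 of its 9 genes negative, Irf3 among them (-0.70). The receptors gave 0.83 (0.91 and 0.37). The ligands gave 0.78 (0.96 and 0.12), which was mostly Ifng (r = 0.88), since the other 4 lay between 0.005 and 0.31. NK cell markers gave 0.80 (0.90 and 0.41) and B and plasma cell markers 0.79 (0.82 and 0.71). Neutrophil markers gave 0.65 (0.80 and 0.05, and 0.32 without the 2 most extreme arrays), although Elane had -0.91, and red cell markers gave 0.41 (0.43 and 0.25). Of the defining markers, Cd79a of B cells was well above background on 0 arrays, Cxcr2 of neutrophils on 1 and Ncr1 of NK cells on 2. Thick limb and distal tubule markers gave -0.59 (-0.74 and -0.18, and -0.20 without the 2 most extreme arrays). Housekeeping genes gave 0.27, with single genes from -0.81 to 0.72, and plasmacytoid dendritic cell markers gave -0.06, with single genes from -0.88 to 0.67. In all, 24 measures were set against the mean of the 6 genes, not all of which are given here. The part of these cell types in the values of the 6 genes was not tested.

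**Figure D4:**
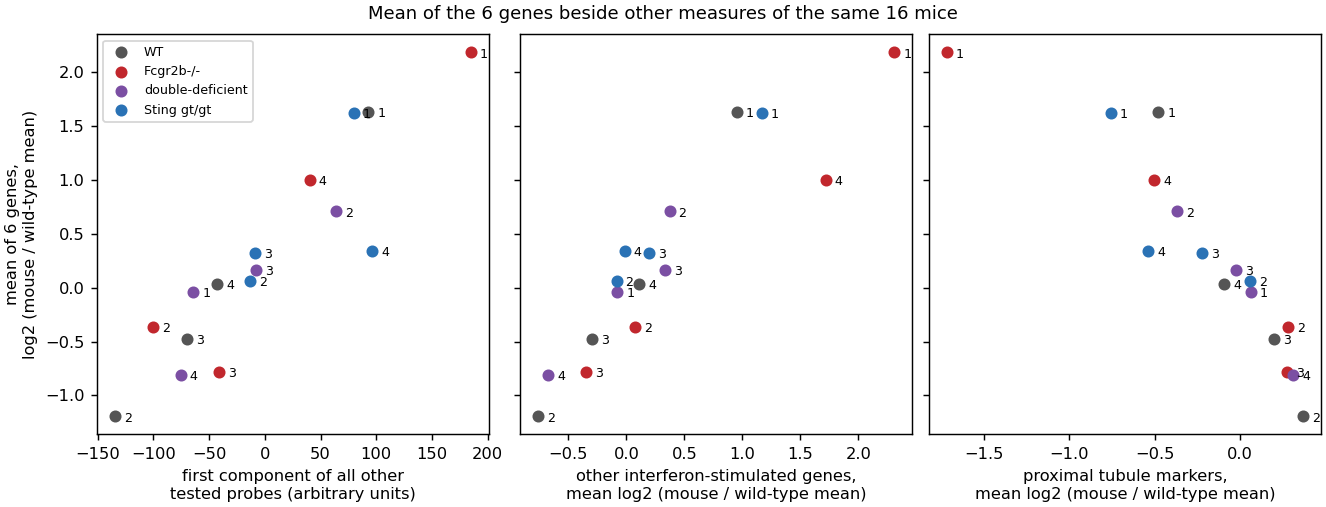
Mean log2 signal of the 6 genes relative to WT (y axis) against the first principal component of the other tested probes, in arbitrary units, and against the means of other interferon-stimulated genes and of proximal tubule markers, in log2 relative to WT (x axes), 1 point per mouse, coloured by genotype and numbered. The proximal tubule panel slopes down (r = -0.92) and the others slope up (r = 0.91 and 0.92), with Fcgr2b-/- mouse 1 at the far end of each.

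The 16 arrays lay on 2 slides of 8. Slide 1 held 2 WT, 3 Fcgr2b-/-, 1 double-deficient and 2 Sting gt/gt arrays, and slide 2 the other 8, so every genotype was on both slides. The 3 arrays with the highest mean of the 6 genes lay side by side in row 1 of slide 1, namely WT mouse 1 in column 1, Sting gt/gt mouse 1 in column 2 and Fcgr2b-/- mouse 1 in column 3. The array of WT mouse 2, with the lowest mean, lay in column 4 of the same row, and that of Fcgr2b-/- mouse 4 in column 4 of row 2. The part of array position in these values was not tested. Y-linked genes were high on 6 arrays, those of WT mice 1 and 2, Fcgr2b-/- mouse 3, double-deficient mice 2 and 4 and Sting gt/gt mouse 3, and near background on the other 10. The labels give no sex. The Y-linked mean had r = -0.22 with the mean of the 6 genes, and both Fcgr2b-/- mice with high values were among those with low Y-linked signal.

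**Figure D5:**
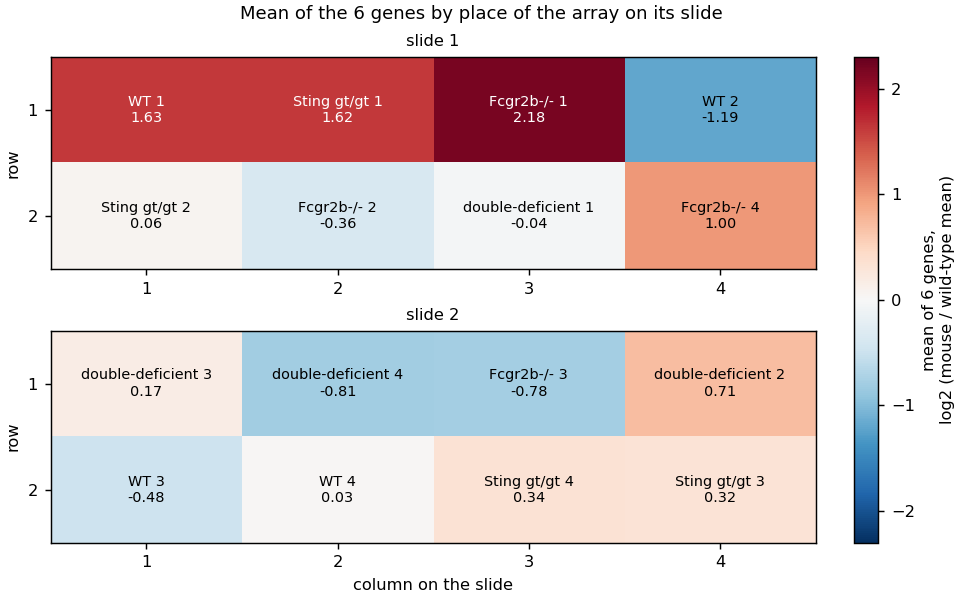
Mean log2 signal of the 6 genes relative to WT at each array's place on the slides, with slide columns on the x axis, rows on the y axis, 1 panel per slide and genotype and mouse number written in each cell. Row 1 of slide 1 holds the 3 highest values (1.63, 1.62 and 2.18) and the lowest (-1.19).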

How the data were processed

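Kidney RNA of 16 mice (100 ng labelled per array by the labelling protocol deposited with the samples) was hybridised to single-colour Agilent arrays, read with Agilent Feature Extraction 11.0 per the submitters' processing notes. The deposited scanner files hold intensity values on a linear scale, which the software had already corrected for background. A second deposited table, of the authors' own log2 values per array, was also read, whose scaling and centring are not given in the sources used here. Each of its 16 columns was closest to its own array (lowest r 0.998), and it served as an alternative. Each array held 59305 spots other than controls for 56605 probes, of which 28443 to 35566 were well above background, and 0 spots were saturated. Outlier spots were left out, spots of a probe were averaged, and log2 processed signal was set against the 75th percentile of the array (384 to 935 before log). The number of arrays limits the precision.

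Probes that 4 or more of the 16 arrays showed well above background were tested with limma 3.58.1 and statmod 1.5.0 in R 4.3.3, with all 4 groups in 1 fit and Benjamini-Hochberg adjustment over 35629 probes. A gene was called at an adjusted p under 0.05 and at least 2-fold. Python 3.11.15, pandas 2.3.3, numpy 2.4.6, Biopython 1.88 and matplotlib 3.10.9 were used for tables, promoters and figures. Of the probes, 32994 (58.3%) were named through RefSeq transcripts. On simulated data the test recovered only part of the larger changes in Fcgr2b-/- against WT mice and did not recover 2-fold ones. The simulated noise was independent between probes, unlike that of these arrays. A gene that was not called may thus still differ by more than 2-fold.

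The member genes and all gene lists were chosen with earlier results of these data known. The text names all 7 member genes, list genes fixed by name, and the 10 closest and the most opposed genes by Pearson correlation with the mean of the members, before and after removal of group means. Genes named beyond these (Slc34a1, Umod, Emcn, Ly6c2, Cd68, Cd247, Cd3e, Cd4, Elane) were chosen as markers or after their values were seen. Some genes that these rules select are not reported here. The mean was planned over 7 genes and taken over the 6 measured ones. Correlations are given as descriptions, with no p. The alternatives were normexp background correction (on the median spot signal, offset 50), quantile and median scaling, the authors' table, other filters, only the groups compared, the exact Mann-Whitney test of the methods, a trended and robust variance, no fold threshold, the median of a gene's probes, and blocks or covariates for slide, replicate number, animal label and Y-linked signal. Each array was also left out in turn. Leaving out number 1 of every group was chosen after seeing the data. The planned mean over all 7 genes became an alternative once Ifi44l had failed the filter on dim probes.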

Additional observations from a re-analysis of the deposited data

How the results depend on the processing

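No member gene was called under any alternative run, in any of the 5 comparisons. Of the log2 changes under alternatives 917 kept their direction and 55 turned, and the 162 recomputed medians and 96 recomputed means by mouse moved by less than the spread between mice. Some medians turned all the same: that of double-deficient against WT, 0.03, was -0.0323 with normexp, -0.0200 with quantile and -0.0783 with median scaling, and others turned with mice left out. Median scaling moves every probe of a comparison by the same amount, which accounts for the turns under it, and the cause of the other turns was not tested. Scaling by the array median moved the median of all probes from -0.04 to -0.20 for Fcgr2b-/- against WT. It moved that median from 0.02 to -0.22 for Sting gt/gt against WT and from 0.01 to 0.29 for the interaction. The members' medians became 0.29, 0.41 and -0.74. Their distance from the median of all probes cannot change under this scaling, so the scaling does not test it. The share of higher probes among those at an unadjusted p under 0.05 moved with the median of all probes, from 79.2% to 65.7%, from 49.8% to 17.4% and from 55.8% to 76.3%. With the authors' table these shares were 57.2%, 17.1% and 83.5%, although the medians of all probes moved less. For double-deficient against Fcgr2b-/- the share was 34.3% in the main setting, 18.4% with normexp and 60.1% with the authors' table. The number of probes called in Fcgr2b-/- against WT, 16 in the main setting, was 0 when only these groups were fitted, when probes had to be above background on all arrays or with the animal label as a random block, 7 with the authors' table or without number 1 of every group and 8 with Y-linked signal as a covariate. With 1 array left out it ran from 0 (without WT mouse 2, 3 or 4 or Fcgr2b-/- mouse 4) to 39 (without Fcgr2b-/- mouse 2).

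Fcgr2b-/- against WT turned for Rsad2 with median scaling (-0.0585), the median of its probes (-0.00187), the slide as a block (-0.0340) and the animal label as a block (-0.0400). Double-deficient against Fcgr2b-/- turned for Rsad2 with median scaling (0.0412), the median of its probes (0.0702), the slide as a block (0.255) and without number 1 of every group (0.523), for Ifi44 with the slide as a block (0.0887) and without number 1 (0.471), and for Ifit2 without number 1 (0.279). Double-deficient against WT turned for Ifit2 with normexp (-0.0939), quantile (-0.0789) and median scaling (-0.103), the authors' table (-0.0516) and Y-linked signal as a covariate (-0.00204), for Ifi44 (-0.0541) and Rsad2 (-0.0172) with median scaling, for Rsad2 with the animal label as a block (-0.0687), and for Ifit3 (0.0575) and Ifit3b (0.0522) without number 1.

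With each array left out in turn, Fcgr2b-/- against WT ran from -0.28 to 0.96 for Ifit2, from -0.31 to 1.01 for Ifi44 and from -0.32 to 0.82 for Rsad2. Double-deficient against Fcgr2b-/- ran from -0.81 to 0.28 for Ifit2, from -0.68 to 0.36 for Ifi44 and from -0.36 to 0.41 for Rsad2. Double-deficient against WT ran from -0.43 to 0.97 for Ifit1, from -0.38 to 0.59 for Ifit2, from -0.55 to 0.12 for Ifit3, from -0.50 to 0.10 for Ifit3b, from -0.31 to 0.72 for Ifi44 and from -0.22 to 0.82 for Rsad2. Sting gt/gt against WT ran from -0.0268 to 0.642 for Ifit3 and from -0.0257 to 0.570 for Ifit3b. Measured members not named here for a comparison kept their direction whichever array was left out, as all of them did in the interaction.

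Without number 1 of every group, chosen after seeing the data, the medians were 0.40, 0.06, 0.71, 0.97 and -0.63 in the order of the report. A single member had an unadjusted p under 0.05 in double-deficient against WT and in Sting gt/gt against WT. The share of all probes at that p is not given for these fits, so these counts are descriptions only.

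The groups share replicate numbers, but the labels do not say what a number marks. Of 24 same-number pairs 11 had deviations from the group mean correlated above 0.1 (median -0.058, against -0.034 for other pairs), and 5 of 16 arrays were closest to an array of their own number, so the numbers were not taken to pair the mice. With the replicate block the count of called members was 0 in all 5 comparisons. Some mice share the first number of their animal label: WT mice 3 and 4, Fcgr2b-/- mouse 3 with double-deficient mouse 4, and Fcgr2b-/- mouse 4 with double-deficient mouse 3. The latter 2 pairs had deviations correlated at 0.67 and 0.37. The main fit treats these mice as unrelated. With that number as a random block (estimated correlation 0.825) the count of called members was 0 as well. For Ifi44l, signal over background limits any statement.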
